A study of Mus musculus with 15 samples.

Results

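The genes described are 8 of hepatic steroid metabolism, chosen by name for the androgen and steroid conversions they serve: *Srd5a1*, *Akr1d1*, *Akr1c6*, *Cyp17a1*, *Hsd17b2*, *Hsd17b6*, *Hsd17b11* and *Hsd11b1*. The choice was made with earlier results of these data known. They are 8 of 55573 genes in the count table, and all 8 were among the 17655 genes with enough reads to be tested. Liver RNA of 15 mice aged 8 weeks was sequenced, with a separate library for every animal. The mice were 3 wild type females (FWT), 3 wild type males (MWT), 5 females homozygous for the *Esr1* knockout (FKO) and 4 homozygous knockout males (MKO). All carry the strain label B6N(Cg)-Esr1tm4.2Ksk/J, and the knockout mice came from matings of heterozygotes. The knockout, a deletion of exon 3, removes the estrogen receptor ESR1 from the whole body and not from liver alone, and the study describes raised testosterone in knockout mice of both sexes. An effect of the receptor in hepatocytes and an effect of the altered hormones cannot be told apart in these groups.

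The liver clears steroid hormones from blood in steps. Reductases saturate the A ring of testosterone, progesterone and the glucocorticoids, hydroxysteroid dehydrogenases then convert between keto and hydroxy groups, and sulfate or glucuronide is attached before the product leaves the cell. *Srd5a1* encodes a 5alpha-reductase, whose product from testosterone is the stronger androgen dihydrotestosterone, and *Akr1d1* encodes the 5beta-reductase, whose products do not bind the androgen receptor and which also acts in bile acid synthesis. *Akr1c6* encodes an aldo-keto reductase with 17beta-hydroxysteroid dehydrogenase activity. *Hsd17b2* encodes an enzyme that oxidises testosterone and estradiol to their weak ketones, *Hsd17b6* one that oxidises androgen diols, and *Hsd17b11* a short-chain dehydrogenase of lipid droplets. Not every gene of the group inactivates a hormone. *Hsd11b1* encodes the enzyme that regenerates active glucocorticoid from its inactive ketone, and *Cyp17a1* encodes the 17alpha-hydroxylase and lyase by which gonads and, in many species, adrenals make androgens.

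*Srd5a1* and *Akr1c6* lie on the same chromosome, far apart, and the other genes each on a chromosome of their own. On GRCm38 they span chr13:69573449-69611442 on the minus strand (*Srd5a1*), chr6:37530173-37568815 on the plus strand (*Akr1d1*), chr13:4434306-4457877 on the plus strand (*Akr1c6*) and chr19:46667165-46673172 on the minus strand (*Cyp17a1*). The dehydrogenase genes span chr8:117701904-117759027 on the plus strand (*Hsd17b2*), chr10:127990936-128007611 on the minus strand (*Hsd17b6*), chr5:103989762-104021919 on the minus strand (*Hsd17b11*) and chr1:193221634-193264075 on the minus strand (*Hsd11b1*). The counts are of reads over the exons of each gene. Of the 50-base words in its transcripts, *Hsd17b6* shared 12.1% with relatives (*Rdh1*, *Rdh16f1*, *Rdh19*, *Rdh18-ps* and *Rdh9*), and *Akr1c6* shared 1.39% with *Akr1c20*. *Srd5a1* shared 15.1% with *Gm17108*, a transcript on the same strand whose mean level was 0.732 CPM (reads scaled to the size of the library, with the scaling that the tests used). The other 5 genes shared 0%, so the assignment of reads was least certain for *Srd5a1* and *Hsd17b6*.

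RefSeq promoter windows on GRCm38.p6 were found for 6 of the 8 genes, *Cyp17a1* and *Hsd17b2* being the others. The 250 bases before the start are shown for the reductases that differed in opposite directions between the sexes and for *Hsd17b6*, at chr13:69611464-69611713 (minus strand), chr6:37529923-37530172 (plus strand) and chr10:128007612-128007861 (minus strand). Capitals mark GGTCA on either strand, the core motif that the estrogen receptor binds as a pair.
Srd5a1: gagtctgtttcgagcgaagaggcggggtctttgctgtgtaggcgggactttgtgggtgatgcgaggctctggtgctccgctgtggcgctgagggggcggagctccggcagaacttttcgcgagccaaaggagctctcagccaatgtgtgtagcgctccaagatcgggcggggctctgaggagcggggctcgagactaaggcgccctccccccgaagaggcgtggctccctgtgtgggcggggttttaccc
Akr1d1: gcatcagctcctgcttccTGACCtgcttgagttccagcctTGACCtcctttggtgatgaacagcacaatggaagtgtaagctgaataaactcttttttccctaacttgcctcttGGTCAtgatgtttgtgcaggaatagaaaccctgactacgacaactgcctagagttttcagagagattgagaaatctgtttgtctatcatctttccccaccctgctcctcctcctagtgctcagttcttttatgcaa
Hsd17b6: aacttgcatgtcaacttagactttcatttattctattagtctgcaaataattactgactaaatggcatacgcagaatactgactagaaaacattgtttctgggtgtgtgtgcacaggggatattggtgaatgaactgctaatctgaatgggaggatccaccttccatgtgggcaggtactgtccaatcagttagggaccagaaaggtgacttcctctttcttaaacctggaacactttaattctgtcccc
The *Akr1d1* window held 3 core motifs, at −232, −210 and −136 from the start, and none of the other windows of the group, including a second start of *Hsd17b6*, held any. The core motif occurred in 40.5% of 32851 promoter windows of the same length, so its presence is common. A full element, with GGTCA and TGACC 3 bases apart, was in 0.0700% of all windows and in none of the group. TGTTCT on either strand (19.0% of all windows), which steroid receptors bind, TTCNNNGAA (8.30%), which STAT5 binds, and ATCAAT on either strand (7.54%), which HNF6 and CUX2 bind, were in none of the group either. The *Srd5a1* stretch had a GC content of 64.8%, against 45.2% for *Akr1d1* and 41.2% for *Hsd17b6*. These matches describe letters in a short window and were not tied to any measurement here.

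Library totals lay between 27799061 and 78624766 counts. *Esr1* itself was at 74.7, 88.2 and 82.8 CPM in FWT and 25.0, 31.2 and 52.0 CPM in MWT. In knockout mice it lay between 9.67 and 19.7 CPM in FKO and between 8.22 and 16.1 CPM in MKO, below every wild type mouse (log2 −2.64 in females, adjusted p = 4.47e-06, and −1.62 in males, adjusted p = 0.00445, edgeR). Reads from the exons that the knockout leaves in place are still counted, so the remaining level does not measure functional receptor. Hepatocyte markers (*Alb*, *Ttr*, *Apoa1*, *Cps1* and *Hnf4a*) summed to 99340 to 106800 CPM in FWT, 73240 to 75260 in MWT, 80720 to 104700 in FKO and 85520 to 94270 in MKO, as the label of liver implies. This sum was mostly *Alb* (on average 86410 of 102300 CPM in FWT and 54550 of 74370 in MWT). *Alb* was higher in FWT than in MWT (0.66, adjusted p = 0.0383). The other hepatocyte markers lay between −0.64 (*Apoa1*) and −0.05 (*Hnf4a*) there and were not called (edgeR). Markers of other liver cells were low beside the hepatocyte sum, with sums over 6 genes each of 241.8 to 404.7 CPM for Kupffer cells, 307.1 to 470.9 for sinusoidal endothelium, 374.2 to 537.6 for stellate cells, 32.5 to 59.6 for cholangiocytes and 1.57 to 4.01 for lymphocytes. The cholangiocyte sum was lowest in FWT (32.5 to 33.1 CPM, against 34.1 to 59.6 elsewhere), but it was mostly *Spp1* (28.8 CPM in FWT), and its members did not move alike. For FWT over MWT *Epcam* was higher (1.08, adjusted p = 0.00657) and *Sox9* lower (−1.03, adjusted p = 0.0384), and for FKO over FWT *Spp1* was higher (0.60, adjusted p = 0.0272, edgeR). The part of these cells in the values of the 8 genes was not tested.

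Compared per kilobase of exon, *Akr1c6* had the highest level of the group, with means of 536 (FWT), 648 (MWT), 649 (FKO) and 558 (MKO) CPM per kilobase. *Hsd11b1* (99.3 to 126), *Hsd17b6* (67.2 to 159.5) and *Hsd17b2* (67.1 to 107) came next over the 4 group means, with overlapping ranges. *Akr1d1* lay between 46.4 and 94.7 and overlapped with them, its FWT mean being above the 88.9 of *Hsd17b2* there, while *Srd5a1* lay between 12.7 and 30.2, and *Hsd17b11* between 13.1 and 16.7 CPM per kilobase. *Cyp17a1* had no fixed place in this order. Its mean was 35.3 CPM per kilobase in FWT, above that of *Srd5a1* there, and 1.95 to 2.01 in the other 3 groups, the lowest of the group.

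**Figure D1:**
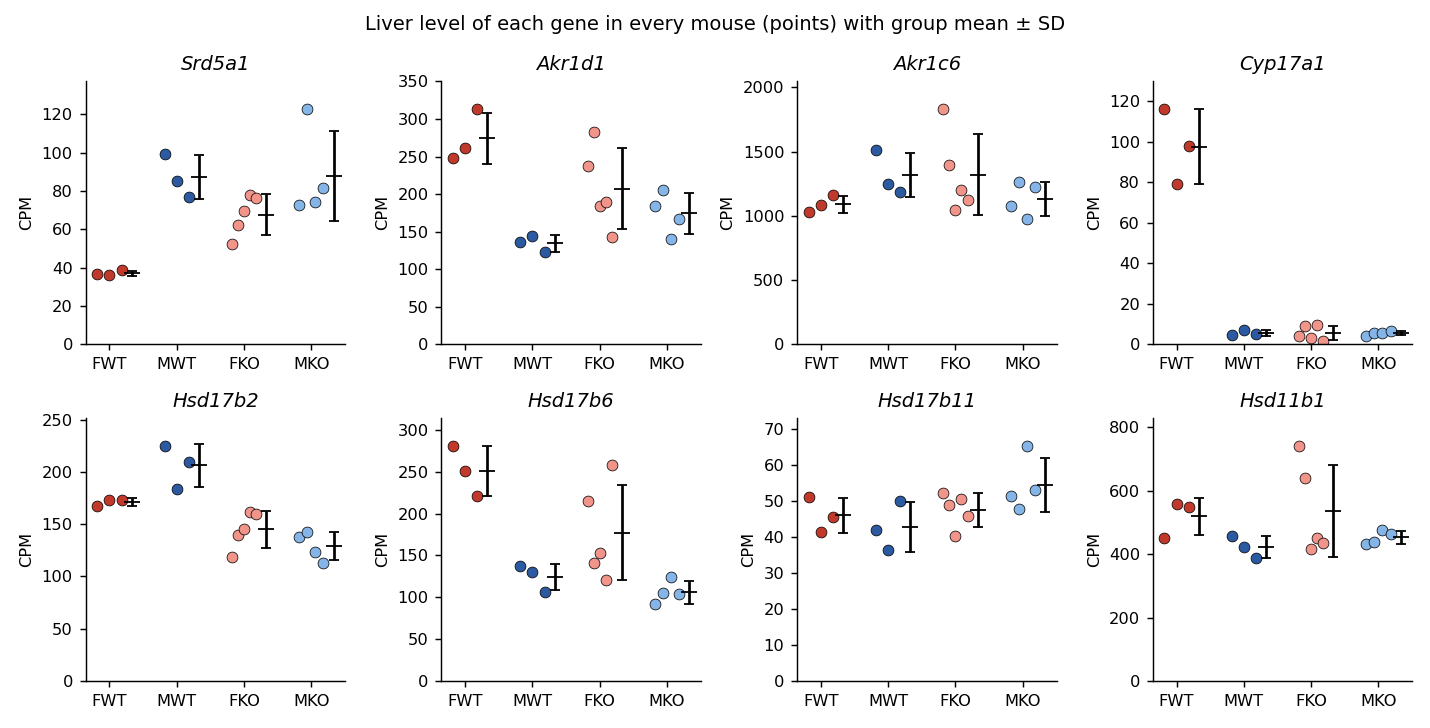
Level of each of the 8 genes in CPM (vertical axes, linear, from 0) in every mouse (points) of the 4 groups, with the group mean and SD as a bar beside the points. *Cyp17a1* stands at 79.0 to 116 CPM in the 3 FWT mice and at 1.68 to 9.53 CPM in the other 12.

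*Cyp17a1* was the gene of the group with the largest differences. The FWT mice had 116, 79.0 and 97.9 CPM. The MWT mice had 4.67, 7.26 and 4.80 CPM, the FKO mice 4.28, 9.15, 3.18, 9.53 and 1.68 CPM, and the MKO mice 4.19, 5.41, 5.47 and 6.52 CPM. Every FWT mouse lay far above every mouse of the other groups, and those groups overlapped with each other. The mean of FWT (97.7 ± 18.5 CPM, SD, n = 3) was 17.5 times that of MWT (5.58 ± 1.46 CPM, SD, n = 3), a log2 difference of 4.13 ± 0.47 (SE) with an adjusted p of 2.24e-05 in edgeR's quasi-likelihood test. FKO had a mean of 5.56 ± 3.57 CPM (SD, n = 5), which was 17.6 times lower than FWT (log2 −4.15 ± 0.39, adjusted p = 4.47e-06, edgeR). In males the genotypes were not past this test (log2 −0.03, 95% interval −0.85 to 0.78, adjusted p = 0.992, edgeR). The female knockout effect differed from the male one by −4.12 ± 0.58 in log2 terms (adjusted p = 0.000529, edgeR), so the difference between the sexes in that effect was itself past the test. In bulk tissue, fewer cells that make an RNA and less of it in each cell cannot be told apart.

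After the loss of *Esr1* no sex difference in *Cyp17a1* was detected, since FKO and MKO differed by 0.02 on the log2 scale (95% interval −0.70 to 0.74). FKO and MWT differed by −0.01 (95% interval −0.79 to 0.77). Within FKO the highest mouse was 5.69 times the lowest. The FKO values rest on 111 to 461 counts in each library, and the FWT values on 3425 to 6748.

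*Cyp17a1* is best known from adrenal cortex and gonad, so markers of steroid-producing cells were read beside it. *Mc2r*, the adrenal corticotropin receptor, was at 0 in all 15 libraries. *Nr5a1*, the steroidogenic cell regulator, was at 0 in all 6 wild type libraries, and *Cyp11b1* was at 0 in every library of FWT, MWT and FKO. *Cyp11a1*, the cholesterol side-chain cleavage enzyme, had 1 count over the FWT libraries and 4 over the MWT libraries. *Star* was near 1.4 CPM in both wild type groups (1.45 ± 0.184 in FWT and 1.40 ± 0.0482 in MWT, SD, n = 3 each). *Hsd3b1* alone followed the pattern of *Cyp17a1*, at 0.999 ± 0.309 CPM in FWT and at 0 to 0.0165 CPM in the means of the other groups, and it has close relatives with which reads can be shared. The 6 markers summed to 2.29 to 2.77 CPM in FWT, 1.41 to 1.49 in MWT, 1.35 to 1.82 in FKO and 1.34 to 2.13 in MKO.

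*Srd5a1* and *Akr1d1* act on the same steroids and differed between wild type sexes in opposite directions. *Srd5a1* was at 36.5, 36.1 and 38.6 CPM in FWT and at 99.4, 85.3 and 77.0 CPM in MWT. The FKO mice had 52.2, 62.0, 69.6, 78.0 and 76.1 CPM and the MKO mice 72.7, 123, 74.2 and 81.8 CPM. All FWT mice were below all other mice, while FKO overlapped with both male groups. The FWT mean (37.0 ± 1.34 CPM, SD, n = 3) was lower than that of MWT (87.2 ± 11.3 CPM, SD, n = 3) by 2.36 times, with a log2 difference of −1.24 ± 0.19 and an adjusted p of 0.000449 (edgeR). The rise in FKO over FWT was 1.83 times (log2 0.87 ± 0.17, adjusted p = 0.00623, edgeR). MKO (87.8 ± 23.5 CPM, SD, n = 4) and MWT were not past the test (log2 0.01, 95% interval −0.33 to 0.35, adjusted p = 0.994, edgeR).

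Whether the knockout effect on *Srd5a1* differed between the sexes depended on the settings. The difference of effects was 0.86 ± 0.24 on the log2 scale, with an adjusted p of 0.0884 in edgeR's test and of 0.0299 in DESeq2's Wald test. Without the MKO mouse at 123 CPM the difference was 1.06 (adjusted p = 0.00529, edgeR), and without the FKO mouse at 52.2 CPM it was 0.94 (adjusted p = 0.0379, edgeR). FKO against MKO (−0.38, 95% interval −0.67 to −0.08, adjusted p = 0.222) and FKO against MWT (−0.37, 95% interval −0.69 to −0.05, adjusted p = 0.254) were not past the test. The FKO mice were above wild type females, and no difference from either male group was called.

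*Akr1d1* was at 248, 261 and 313 CPM in FWT and at 136, 144 and 122 CPM in MWT. FKO mice had 237, 283, 184, 189.7 and 143 CPM, and MKO mice had 184, 206, 140.3 and 167 CPM. The wild type sexes did not overlap, and the FKO mice were spread from within the FWT range, where the FKO mouse at 283 CPM exceeded 2 of the 3 FWT mice, to within the MWT range. The FWT mean (274 ± 34.3 CPM, SD, n = 3) was 2.04 times that of MWT (134 ± 11.1 CPM, SD, n = 3), a log2 difference of 1.03 ± 0.20 with an adjusted p of 0.0051 (edgeR). Neither genotype effect was past the test: the log2 difference was −0.40 (95% interval −0.75 to −0.05, adjusted p = 0.192) in females and 0.38 (95% interval 0.01 to 0.75, adjusted p = 0.461) in males. In males the unadjusted p was 0.0629 (edgeR), since the interval is narrower than this test implies. The difference of these effects was −0.78 ± 0.26 (adjusted p = 0.179, edgeR). FKO and MKO differed by 0.25 (95% interval −0.07 to 0.57, adjusted p = 0.434).

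**Figure D2:**
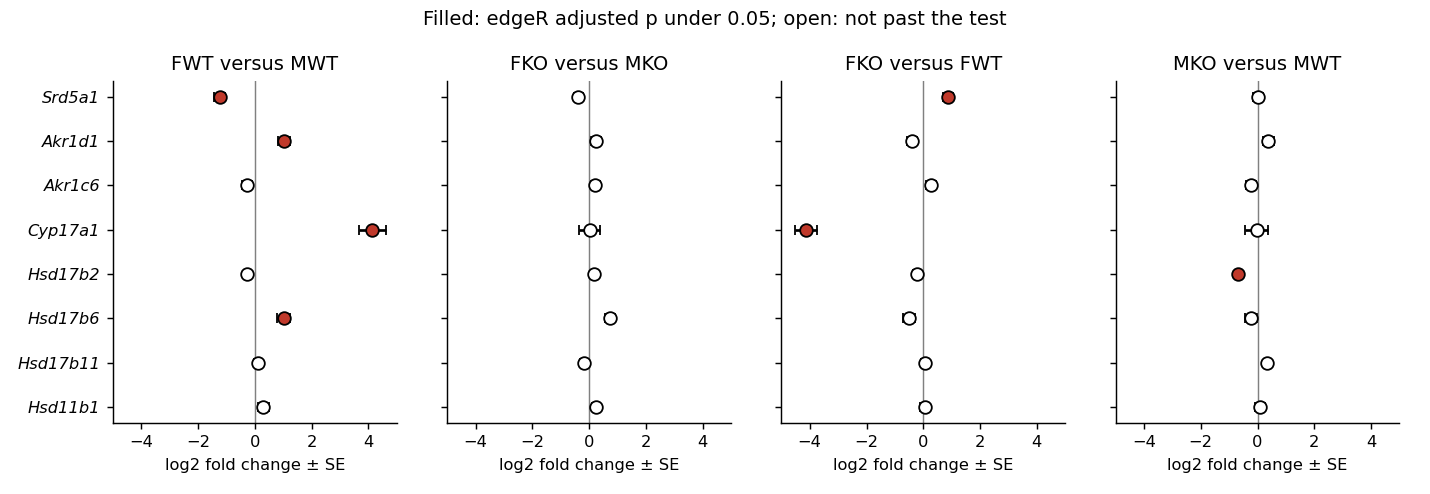
log2 fold change (horizontal axes) of the 8 genes in 4 comparisons, first group over second, with bars of 1 SE; filled points have an adjusted p under 0.05 in edgeR's test and open points do not. *Cyp17a1* lies at 4.13 for FWT over MWT and at −4.15 for FKO over FWT, and no point is filled for FKO over MKO.

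Read together per kilobase of exon, the level of *Srd5a1* was 0.135 of that of *Akr1d1* in FWT and 0.645 in MWT (geometric means). It was 0.33 in FKO and 0.494 in MKO. On the log2 scale the ratio was −2.77, −2.86 and −3.03 in FWT, −0.46, −0.76 and −0.67 in MWT, −2.19, −2.20, −1.41, −1.29 and −0.92 in FKO, and −1.35, −0.76, −0.93 and −1.04 in MKO. FWT overlapped with no other group, FKO lay wholly between FWT and MWT, and FKO overlapped with MKO. Exact permutation tests (two-sided) of this ratio were made for the 6 pairs of groups, after the values of both genes had been seen. FWT against FKO (difference −1.29) and MWT against FKO (0.97) each gave p = 0.0357 and FWT against MWT (−2.26) gave p = 0.1, each the smallest that the exact permutation allows at these group sizes. FWT against MKO (−1.87) gave a permutation p of 0.0571, also the smallest allowed. For groups already seen not to overlap that outcome was fixed in advance. MWT against MKO (0.38) gave a permutation p of 0.114 and FKO against MKO (−0.58) one of 0.127. After Benjamini-Hochberg adjustment over the 6 pairs the permutation p-values were 0.107 to 0.127. Groups of these sizes cannot pass that adjustment, since the smallest adjusted value they allow is 0.0686, so it says nothing for or against a difference. Levels of RNA do not measure the activity of either enzyme.

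**Figure D3:**
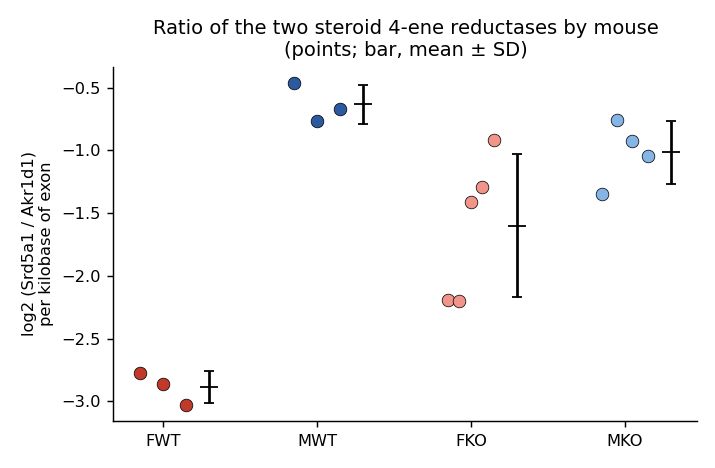
log2 ratio of the *Srd5a1* to the *Akr1d1* level, both per kilobase of exon (vertical axis), in every mouse (points) with the group mean and SD (bar). The FKO mice run from −2.20 to −0.92, between the FWT mice (−3.03 to −2.77) and the MWT mice (−0.76 to −0.46).

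*Hsd17b6* was at 281, 251 and 221 CPM in FWT and at 137, 129.6 and 106 CPM in MWT. FKO mice had 215, 141, 152, 121 and 258 CPM, and MKO mice had 91.4, 105, 124 and 103 CPM. The wild type sexes did not overlap, FKO spanned from the MWT range to the FWT range, and every MKO mouse was below every FWT mouse. FWT exceeded MWT by 2.02 times (251 ± 29.7 against 124 ± 15.9 CPM, SD, n = 3 each), a log2 difference of 1.01 ± 0.23 (adjusted p = 0.0127, edgeR). This call was lost without the FWT mouse at 281 CPM (0.93, adjusted p = 0.0557, edgeR) or without the MWT mouse at 106 CPM (0.91, adjusted p = 0.0601, edgeR). The mean of FKO was 177 ± 57.1 CPM (SD, n = 5), and its difference from FWT was −0.50 (95% interval −0.89 to −0.12, adjusted p = 0.143, edgeR). Without the FKO mouse at 258 CPM that difference was −0.68 (adjusted p = 0.0247, edgeR).

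*Hsd17b6* had the largest log2 difference between the knockout sexes in the group, 0.74 ± 0.19 for FKO over MKO, with an adjusted p of 0.0943 in edgeR's test. It was past the threshold in DESeq2's Wald test (0.73, adjusted p = 0.0113), with no filter on low counts (0.76, adjusted p = 0.0123, edgeR) and without the FKO mouse at 121 CPM (0.85, adjusted p = 0.0437, edgeR). The knockout effect in males was −0.23 (95% interval −0.64 to 0.18, adjusted p = 0.738), and the difference of the effects was −0.27 (adjusted p = 0.692, edgeR). Kupffer cell markers moved in the same comparison, with sums of 315.5 to 404.7 CPM in FKO and 241.8 to 314.1 in MKO that did not overlap. Of these 6 markers edgeR called 1 (*Vsig4*, 0.61, adjusted p = 0.021), beside 0.159% of all genes that were higher. DESeq2 called 5 of the 6, beside 2.72% of all genes to which it gave an adjusted p. The part of these cells in the *Hsd17b6* values was not tested. The FKO and MKO groups overlapped in *Hsd17b6*, since the FKO mouse at 121 CPM was below the MKO mouse at 124 CPM.

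*Hsd17b2* was the only gene of the group past the test between MKO and MWT. It was at 225, 184 and 209.6 CPM in MWT and at 137, 142, 124 and 113 CPM in MKO. Every MKO mouse was below every MWT mouse, and also below every FWT mouse (167, 173 and 173 CPM). The MKO mean (129 ± 13.4 CPM, SD, n = 4) was 1.6 times lower than the MWT mean (206 ± 20.6 CPM, SD, n = 3), a log2 difference of −0.68 ± 0.12 with an adjusted p of 0.00701 (edgeR). FKO mice had 119, 139, 145, 162 and 159.5 CPM. All 5 were below the FWT mice too, but the difference was −0.24 (95% interval −0.46 to −0.02) and not past the test (adjusted p = 0.227, unadjusted p = 0.0521, edgeR). The difference of the knockout effects between the sexes was 0.44 ± 0.17 (adjusted p = 0.249), so a difference between the sexes in this respect was not shown. The MKO call was kept in 15 of 15 fits that each left out 1 mouse. Of the markers of other cell types, 2 of 6 for cholangiocytes were higher in MKO than in MWT (*Krt19*, 1.23, adjusted p = 0.0307, and *Epcam*, 0.95, adjusted p = 0.03, edgeR), with summed levels of 41.5 to 59.6 CPM in MKO and 34.1 to 55.7 in MWT. Over all genes 0.833% were higher in MKO. Kupffer cell markers summed to 241.8 to 314.1 CPM in MKO and 304.8 to 322 in MWT, with none called in edgeR. The part of these cells in the *Hsd17b2* values was not tested. In wild type, FWT and MWT differed by −0.27 (95% interval −0.52 to −0.02, adjusted p = 0.293, unadjusted p = 0.0516, edgeR).

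*Hsd17b11* and *Akr1c6* gave no call in any of the 7 comparisons, nor in any of the alternative fits with adjusted p-values. *Hsd17b11* ranged from 36.4 to 65.4 CPM over the 15 mice, and its group means were 46.1 ± 4.89 (FWT), 42.8 ± 6.92 (MWT), 47.6 ± 4.71 (FKO) and 54.5 ± 7.57 CPM (MKO). All 4 groups overlapped with at least 1 other, and the largest difference was 0.35 for MKO over MWT (95% interval 0.09 to 0.61, adjusted p = 0.277, edgeR). *Akr1c6* ranged from 976 to 1830 CPM, with means of 1090 ± 66.9 (FWT), 1317 ± 172 (MWT), 1320 ± 313 (FKO) and 1134 ± 132 CPM (MKO). Its log2 differences lay between −0.27 (FWT over MWT, 95% interval −0.64 to 0.09) and 0.28 (FKO over FWT, 95% interval −0.05 to 0.61) in the pairwise comparisons.

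*Hsd11b1* was at 451 to 558 CPM in FWT, 388 to 456 CPM in MWT, 415 to 741 CPM in FKO and 433 to 477 CPM in MKO. Each pair of groups overlapped. No comparison was past the test, and the log2 differences were 0.30 for FWT over MWT (95% interval −0.08 to 0.67, adjusted p = 0.471), 0.05 for FKO over FWT (−0.29 to 0.38, adjusted p = 0.900) and 0.10 for MKO over MWT (−0.25 to 0.45, adjusted p = 0.889). *Serpina6*, which encodes the glucocorticoid-binding globulin of plasma, did change. It had means of 483 ± 64.7 (FWT), 168 ± 13.6 (MWT), 264 ± 63.9 (FKO) and 289.6 ± 25.2 CPM (MKO). It was higher in FWT than in MWT (1.52, adjusted p = 4.38e-05), fell in FKO (−0.87, adjusted p = 0.00378) and rose in MKO (0.78, adjusted p = 0.03), and the effects differed between the sexes (−1.65, adjusted p = 0.000587, edgeR). *H6pd*, which supplies NADPH to the *Hsd11b1* product, and *Nr3c1*, the glucocorticoid receptor, were past the test in none of the 7 comparisons.

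Between wild type sexes, 3 of the 8 genes were higher in FWT (*Cyp17a1*, *Akr1d1* and *Hsd17b6*) and 1 was lower (*Srd5a1*), against 2.67% and 2.2% of all tested genes in these directions. The 8 were chosen with earlier results of these data known, so counts set beside such shares only describe the list. With a minimum log2 fold change of 1.5, the limit that the study used, 1 of the 8 was called (*Cyp17a1*), where 1.81% of all genes passed. Between FKO and MKO 0 of the 8 were called, with shares of 0.159% and 0.113% over all genes (edgeR). At an unadjusted p under 0.05 there were 2 (*Hsd17b6* and *Srd5a1*), a share close to the 17.5% of all genes under that rule, and DESeq2 called 1, beside 2.72% of all genes to which it gave an adjusted p. The median log2 difference of the 8 was 0.20 for FWT over MWT and 0.19 for FKO over MKO, beside medians of 0.01 over all tested genes in both.

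In FKO against FWT, which share the FWT mice with the wild type comparison, 1 of the 8 rose (*Srd5a1*) and 1 fell (*Cyp17a1*), where 3.14% of all genes rose and 2.57% fell. These shares over all genes ranged from 1.19% to 4.80% and from 1.04% to 3.94% when each mouse was left out, and were 1.26% and 1.04% without the third FWT mouse. With the fold minimum 1 was called (*Cyp17a1*), against 1.2% of all genes. In MKO against MWT 0 of the 8 rose (edgeR, with 2 of the 8 at an unadjusted p under 0.05 in either direction, beside 11.9% of all genes) and 1 fell (*Hsd17b2*), with 0.833% and 0.583% of all genes. The difference of the knockout effects was past the test for 1 of the 8 (*Cyp17a1*, negative), where 1.02% of all genes were positive and 0.923% negative. At an unadjusted p under 0.05 there were 4 of the 8 in FKO against FWT and 4 for the difference of effects, beside 22.5% and 14.3% of all genes. The medians of the 8 were −0.10, −0.01 and −0.16 in these 3 comparisons, against medians between −0.01 and 0.00 over all tested genes.

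Comparisons across both sex and genotype completed the order of the groups. FKO differed from MWT in 1 gene, *Hsd17b2* (−0.51 ± 0.11, adjusted p = 0.0227, edgeR), where 1.38% of all genes were higher and 1.23% lower in FKO. At an unadjusted p under 0.05 it was 4 of the 8, beside 17.4% of all genes. That call was lost without the MWT mouse at 225 CPM (adjusted p = 0.13), the MWT mouse at 209.6 CPM (0.096) or the FKO mouse at 139 CPM (0.0552), and when these groups alone were fitted (adjusted p = 0.12, edgeR). *Akr1d1* had 0.63 ± 0.18 in the same comparison (adjusted p = 0.0866, edgeR), and passed in DESeq2's Wald test (adjusted p = 0.0305) and without the FKO mouse at 143 CPM (0.74, adjusted p = 0.02, edgeR). MKO differed from FWT in 5 of the 8: *Srd5a1* was higher (1.25 ± 0.18, adjusted p = 0.000313), while *Cyp17a1* (−4.16 ± 0.42, 6.67e-06), *Hsd17b6* (−1.25 ± 0.21, 0.0014), *Akr1d1* (−0.65 ± 0.19, 0.0432) and *Hsd17b2* (−0.41 ± 0.12, 0.0486) were lower, against 3.67% and 3.74% of all genes (edgeR). The last 2 of these were near the threshold, and *Akr1d1* passed in 6 and *Hsd17b2* in 4 of 15 fits that each left out 1 mouse.

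For the 4 genes with a wild type sex difference, each knockout mouse was placed on a log2 scale with the FWT mean at 0 and the MWT mean at 1. The scale uses the same FWT and MWT mice as the comparisons above, so the positions restate those data and were not tested. FKO mice were at 1.06 ± 0.254 for *Cyp17a1* (range 0.807 to 1.41, SD, n = 5), at 0.695 ± 0.194 for *Srd5a1* (0.404 to 0.875), at 0.545 ± 0.445 for *Hsd17b6* (−0.0431 to 1.03) and at 0.422 ± 0.365 for *Akr1d1* (−0.0513 to 0.905). For *Cyp17a1* all 5 FKO mice lay nearer to the male than to the female value, whereas for *Hsd17b6* and *Akr1d1* they covered nearly the whole distance between the sexes. MKO mice were at 1.01 (*Cyp17a1*), 0.986 (*Srd5a1*), 1.23 (*Hsd17b6*) and 0.643 (*Akr1d1*) on average.

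**Figure D4:**
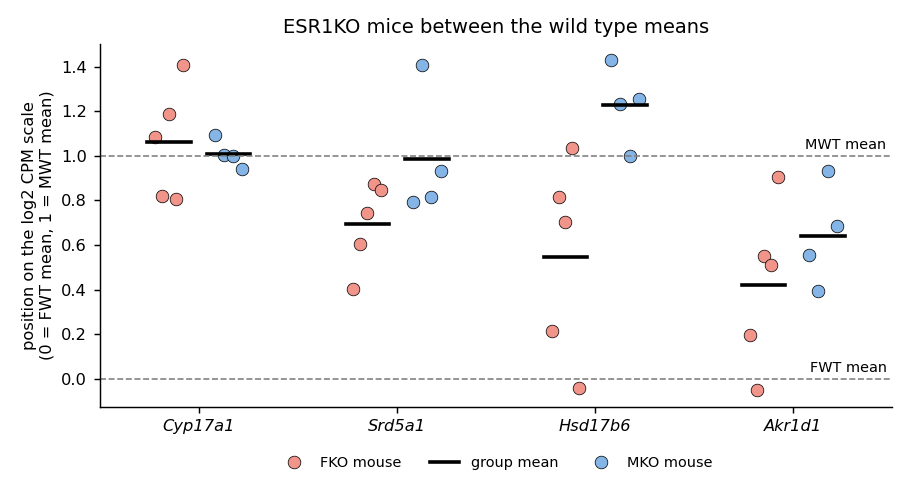
Position of each FKO and MKO mouse (points, with the group mean as a bar) on the log2 CPM scale between the FWT mean (0) and the MWT mean (1), for the 4 genes that differed between wild type sexes. FKO points for *Cyp17a1* lie between 0.807 and 1.41, and those for *Hsd17b6* between −0.0431 and 1.03.

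The FKO mice did not take the same order for each gene. The fifth FKO mouse had the lowest *Cyp17a1* (1.68 CPM) and *Akr1d1* (143 CPM) but the highest *Hsd17b6* (258 CPM). The fourth had the highest *Cyp17a1* (9.53 CPM) and *Srd5a1* (78.0 CPM) and the lowest *Hsd17b6* (121 CPM). The first and second had the highest *Akr1c6* (1830 and 1397 CPM) and *Hsd11b1* (741 and 641 CPM) and the lowest *Srd5a1* (52.2 and 62.0 CPM). Pericentral hepatocyte markers, 8 genes such as *Glul* and *Cyp2e1*, summed to 4216, 4943, 7124, 7560 and 8744 CPM in FKO mice 1 to 5, against 7922 to 9977 in FWT, 7527 to 8491 in MWT and 6610 to 7871 in MKO. Most of this sum was *Cyp2e1* (on average 6241 of 9206 CPM in FWT). Periportal markers, also 8 genes, summed to 4719, 5082, 5652, 6526 and 5949 CPM in FKO mice 1 to 5. Their sums were 6016 to 8877 in FWT, 6774 to 8134 in MWT and 5093 to 7890 in MKO. The first 2 FKO mice were lowest in both sums, and the part of zonation in the values of the 8 genes was not tested.

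For each gene the most similar pair of other tested genes was taken by Pearson's r of log2 CPM over the 15 libraries, a description that mixes group differences with depth and library effects. *Gabarapl2* (r = 0.967) and *Pdhx* (0.953) were closest to *Srd5a1*, and *Gabarapl2* remained close within groups (0.933). *Tmem126a* (r = 0.961 over all, 0.956 within groups) was closest to *Akr1c6*. *Cux2*, a female-biased transcription factor of liver, was second for *Hsd17b6* (r = 0.908, 0.68 within groups), after *Fhod3* (0.924). *Sult3a1*, a sulfotransferase at low level here, was second for *Cyp17a1* (r = 0.952, 0.674 within groups). The closest genes were weakest for *Hsd17b11*, at 0.829 (*Mkln1os*) and 0.820 (*Dusp10*).

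*Hsd17b6* lies in a chromosome 10 cluster of short-chain dehydrogenases, with *Rdh9* (chr10:127776386-127792697), *Rdh16* (chr10:127801152-127846565) and *Rdh16f2* (chr10:127866474-127877317) at lower coordinates. All 3 relatives were higher in FWT than in MWT, by 1.08 (adjusted p = 0.00405), 1.14 (0.00169) and 1.89 (3.64e-07) on the log2 scale (edgeR), beside 1.01 for *Hsd17b6*. They differed after the knockout. *Rdh9* (−1.12, adjusted p = 0.00123) and *Rdh16f2* (−1.24, 1.25e-05) fell in FKO, while *Rdh16* had 0.26 there (0.403) and rose in MKO (1.55, adjusted p = 0.000441, edgeR). The level of *Rdh16* was 114 ± 13.6 CPM in FWT, 52.0 ± 6.94 in MWT, 137 ± 29.1 in FKO and 152 ± 29.3 in MKO, and MKO against FWT was 0.41 (adjusted p = 0.195, edgeR). The difference of effects was past the test for *Rdh16* (−1.29, adjusted p = 0.0098) and *Rdh16f2* (−1.36, 0.000529), and not for *Rdh9* (−0.78, 0.193) or *Hsd17b6*. Since *Rdh9* is among the genes that share words with *Hsd17b6*, part of their reads could be exchanged.

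Over the 11 tested of 14 listed dehydrogenases of this kind, these 3 were higher in FWT and *Hsd17b12*, an enzyme of fatty acid elongation, was lower (−0.59, adjusted p = 0.00395, edgeR), with a median of 0.07. In FKO 3 rose (*Hsd17b10*, *Hsd17b12* and *Hsd17b13*, by 0.39 to 0.50) and 2 fell, with a median of −0.03. In MKO 1 rose (*Rdh16*). Over all genes 2.67% were higher and 2.2% lower in FWT, 3.14% rose and 2.57% fell in FKO, and 0.833% rose in MKO. The aldo-keto reductases beside *Akr1c6* on chromosome 13 were read with the other A-ring and 3-keto reductases, 9 genes of which 8 were tested. In edgeR's test 0 of the 8 passed for FWT against MWT, where 5 had an unadjusted p under 0.05, DESeq2 called 1 and the median was −0.28. Of all 17655 tested genes 3060 had an unadjusted p under 0.05 there. In FKO 3 of these 8 reductases rose, *Akr1c19* by 0.99 (adjusted p = 0.00277), *Akr1c13* by 0.60 (0.0213) and *Akr1c12* by 0.60 (0.0212), against 0.28 for *Akr1c6* (0.344). The share of all genes that rose in FKO was 3.14%. In males 0 of the 8 passed (edgeR), and 0 did at an unadjusted p under 0.05 or by DESeq2. *Srd5a2*, the other 5alpha-reductase of androgen target tissues, had group means of 1.80 to 2.48 CPM.

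Of 6 tested genes of steroid synthesis and electron transfer, *Por*, the reductase that supplies electrons to microsomal P450 enzymes, fell in FKO (−0.96, adjusted p = 0.0301), from 539 ± 46.2 CPM in FWT to 277 ± 84.2 CPM. *Cyp21a1*, the adrenal 21-hydroxylase gene, had 71 counts over the MWT libraries, 2 over FWT, 16 over FKO and 21 over MKO. It passed the count filter through MWT alone, so its direction against MWT was fixed in advance and is not counted. *Cyb5a*, which aids the lyase step of CYP17A1, had group means of 678 to 773 CPM and was not called. Apart from *Por* and *Cyp21a1*, no gene of this list passed in FWT against MWT, FKO against FWT or MKO against MWT (edgeR). Over all genes 2.67% were higher and 2.2% lower in FWT than in MWT. In FKO 3.14% rose and 2.57% fell, and in MKO 0.833% rose and 0.583% fell.

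Of 6 hydroxylases of androgens tested, 1 was higher and 2 were lower in FWT than in MWT, against 2.67% and 2.2% of all genes (edgeR). All 3 were also called with the knockout in at least 1 sex, in comparisons that share these wild type mice. In FKO 2 of the 6 rose and 1 fell, beside 3.14% and 2.57% of all genes. In MKO 1 rose and 1 fell, beside 0.833% and 0.583% (edgeR). *Cyp2d9*, a testosterone 16alpha-hydroxylase of male liver, was at 90.4 ± 31.5 CPM in FWT, 1737 ± 269 in MWT, 802 ± 297 in FKO and 1414 ± 162 in MKO, and rose in FKO by 3.15 (adjusted p = 7.15e-06, edgeR). *Cyp7b1*, an oxysterol and androgen 7alpha-hydroxylase, was at 52.9 ± 17.7, 722 ± 20.8, 104 ± 32.1 and 108 ± 31.9 CPM in the same order, and fell by 2.74 on the log2 scale in MKO (adjusted p = 4.98e-05, edgeR). *Cyp2a4*, a 15alpha-hydroxylase of female liver with a near-identical copy in *Cyp2a5*, was at 1052 ± 194, 0.206 ± 0.0797, 113 ± 83.7 and 8.07 ± 6.20 CPM. Of the 6 hydroxylases tested, *Cyp2a4* was also the one that differed between FKO and MKO (3.83, adjusted p = 0.00241), edgeR.

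Of 7 *Ugt2b* genes tested, 4 were lower in FWT than in MWT and 1 was higher, and 4 rose and 1 fell in FKO, with medians of −0.77 and 0.82. Over all genes 2.2% were lower and 2.67% higher in FWT than in MWT, and 3.14% rose and 2.57% fell in FKO. These comparisons share the FWT mice. The largest were *Ugt2b38* (−3.91 for FWT over MWT and 2.79 for FKO over FWT) and *Ugt2b37* (2.13 and −2.36), all 4 past the test (edgeR). In MKO 0 of the 7 were called (edgeR), 3 had an unadjusted p under 0.05, beside 11.9% of all genes, and DESeq2 called 0. *Sult2a1*, *Sult2a2* and *Sult2a5* were among 6 tested sulfation genes. They had 1792, 3383 and 325 counts over the FWT libraries and 0 to 2 in each other group. All passed the count filter through FWT alone, so their direction was fixed in advance and is not counted. Of the others, *Papss2* was higher in FWT than in MWT (1.32, adjusted p = 5.03e-05) and *Sult2a8* lower (−0.81, 0.0357, edgeR). *Sult2a1* and *Sult2a2*, which sulfate androgens and bile acids, had 12.4 ± 6.55 and 23.2 ± 8.95 CPM in FWT and means of 0 to 0.0102 CPM in the other groups. *Papss2*, which makes the sulfate donor, fell in FKO from 431 ± 68.2 to 159 ± 23.5 CPM (−1.44, adjusted p = 7.05e-06), while *Sult2a8* rose (0.81, adjusted p = 0.0239, edgeR). These families share reads among close copies, so calls of single members are uncertain and those of several are not independent.

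**Figure D5:**
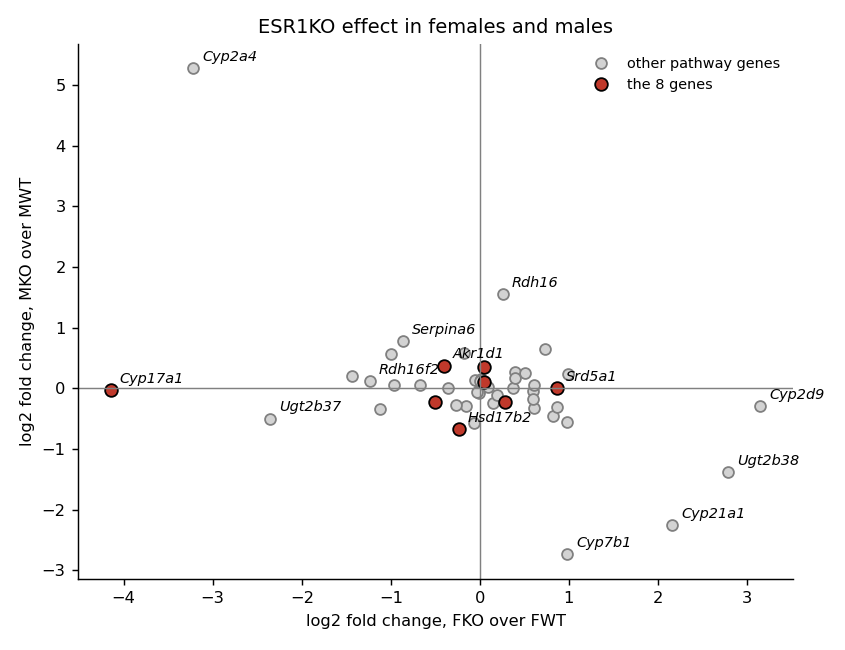
log2 fold change with the knockout in females (FKO over FWT, horizontal axis) and in males (MKO over MWT, vertical axis) for the 8 genes (red) and the other tested pathway genes (grey), without the *Sult2a* genes, several of which are at 0 in a group. *Cyp17a1* lies at −4.15 and −0.03, and *Cyp2a4* at −3.22 and 5.28.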

How the data were processed

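The authors extracted total liver RNA, depleted ribosomal RNA and sequenced paired ends, with a second run for samples of low yield. Reads were trimmed with Trimmomatic (version 0.36), aligned to GRCm38 with STAR and counted per gene with HTSeq. The deposited values are these raw read counts. The submitters' processing notes give HTSeq version 0.6.0, while the methods of the study name a different version. The annotation release and the strand setting of the counting are not given in the sources used here, so reads of overlapping genes on opposite strands may be mixed.

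Counts were tested with edgeR (version 4.0.16, R 4.3.3). Low genes were removed by filterByExpr and library sizes adjusted by TMM, after which 1 mean per group was fitted over all 15 libraries in the quasi-likelihood framework. p-values were adjusted by Benjamini-Hochberg over 17655 genes, and an adjusted p under 0.05 was called without a fold minimum. Levels are CPM scaled by TMM, log2 CPM used a prior count of 2, and 95% intervals are 1.96 SE on either side. The 1.96 is that of a normal distribution, so the intervals are narrower than edgeR's F test implies. An interval that just leaves out 0 can go with an unadjusted p above 0.05 in that test. Where levels of different genes were set side by side, CPM was divided by the exon length of GENCODE M21. The calculations were checked on simulated counts. Library totals of 27799061 to 78624766 counts bound the precision of low genes, and the intervals do not cover effects of the library preparation.

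The 8 genes and the other lists were chosen with earlier results of these data known. Genes outside the 8 were named as at most the 3 with the largest fold change past the test in each list and comparison, with close relatives in the same cluster. *H6pd*, *Nr3c1*, *Cyb5a*, *Srd5a2* and the cell markers were named for their role after their values were seen. *Hsd17b8* and *Sts* were listed and not analysed here. Alternatives were DESeq2 (version 1.42.0), other scalings and filters, a replicate block, a fold minimum of 1.5, fits of the compared groups alone and leaving out each mouse. The labels name separate samples, and the p-values measure the spread between them. No libraries of a group were the same within sampling noise.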

Additional observations from a re-analysis of the deposited data

Results flagged for a closer look

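*Cyp17a1* was the gene of the 8 for which the effect of the knockout differed between the sexes by a test of the difference itself, with −4.12 on the log2 scale for females over males (SE 0.58, adjusted p = 0.000529, edgeR). Under each of 15 fits that left out a mouse the value lay between −4.42 and −3.87 and stayed past the threshold. Dixon's criterion at 95%, which compares the gap of the highest or lowest mouse with the range of its group, was passed in none of 16 sets (the 8 genes in the 5 FKO and the 4 MKO mice), where chance gives about 1 in 20. The *Srd5a1* value of the MKO mouse at 123 CPM (the others were at 72.7 to 81.8) came near the criterion, with a gap of 0.818 of the range.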

How the results depend on the processing

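Of 1336 refitted log2 differences of the 8 genes, 1235 kept their direction and side of the threshold, 40 lost a call, 24 gained one and 37 changed sign. The cause was not tested for any of them, apart from the fold minimum and the unadjusted p, which change the rule itself. Numbers of the 8 genes called moved as follows. With the fold minimum of 1.5 they were 1 for FWT against MWT (4 without it), 1 for FKO against FWT (2), 0 for MKO against MWT (1), 0 for FKO against MWT (1) and 1 for MKO against FWT (5). At an unadjusted p under 0.05 they were 2 for FKO against MKO (0), 4 for FKO against FWT, 2 for MKO against MWT, 4 for the difference of effects (1) and 4 for FKO against MWT, where 17.5%, 22.5%, 11.9%, 14.3% and 17.4% of all genes passed. DESeq2's Wald test and no filter on low counts each gave 1 for FKO against MKO, 2 for the difference of effects and 2 for FKO against MWT, and the compared groups alone gave 0 for FKO against MWT. Leaving out each mouse gave 3 to 4 (FWT against MWT), 0 to 1 (FKO against MKO), 2 to 3 (FKO against FWT), 1 to 1 (MKO against MWT), 1 to 2 (difference of effects), 0 to 2 (FKO against MWT) and 3 to 5 (MKO against FWT).

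Signs changed in uncalled values near 0. For *Srd5a1* in MKO against MWT the value was −0.0106 with total counts, −0.0198 with no filter and −0.0389 with the replicate block. For *Akr1c6* in FKO against MWT it was −0.0103 with DESeq2 size factors, −0.0169 in DESeq2, −0.0175 with no filter and −0.000962 with the compared groups alone, and in MKO against FWT −0.0139 with total counts. For *Cyp17a1* in FKO against MWT it was 0.0206 with total counts and 0.0144 with the replicate block, and for the *Hsd11b1* difference of effects 0.00836 with no filter. With each mouse left out, ranges crossing 0 were −0.28 to 0.26 (*Cyp17a1*, FKO against MKO), −0.14 to 0.20 (*Cyp17a1*, MKO against MWT), −0.31 to 0.23 (*Cyp17a1*, FKO against MWT), −0.0259 to 0.13 (*Hsd17b11*, FKO against FWT), −0.10 to 0.13 (*Hsd11b1*, FKO against FWT), −0.20 to 0.0258 (*Hsd11b1*, difference of effects), −0.19 to 0.11 (*Srd5a1*, MKO against MWT) and −0.14 to 0.11 (*Akr1c6*, FKO against MWT).

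Replicate numbers did not pair the mice: over 19 pairs with the same number the correlation of deviations from group means ran from −0.195 to 0.14, and 1 was over 0.1. With the replicate block *Hsd17b6* passed in FKO against FWT (−0.63, adjusted p = 0.0411), *Akr1d1* passed in FKO against MWT (0.77, 0.0211), and *Hsd17b2* was lost in FKO against MWT (−0.55, 0.0521) and MKO against FWT (−0.41, 0.104, edgeR). No filter also brought the *Srd5a1* difference of effects past the test (0.92, adjusted p = 0.0182, edgeR).

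Over all genes, DESeq2 called 1533 in FKO against FWT (1008 in edgeR), 431 in FKO against MKO (48), 853 in FKO against MWT (461), 583 for the difference of effects (343) and 486 in MKO against MWT (250). No filter gave 313 in FKO against MKO and 411 in MKO against MWT. The compared groups alone gave 457, 26, 242 and 422 in FKO against FWT, FKO against MKO, FKO against MWT and MKO against MWT, and 2613 in MKO against FWT (1309). The replicate block gave 165 in MKO against MWT. Leaving out each mouse gave 413 (without FWT 3) to 1538 (without FKO 5) in FKO against FWT, 541 (without MWT 1) to 1096 in FWT against MWT (860), 26 (without MKO 3) to 109 (without FKO 5) in FKO against MKO, 100 (without MWT 3) to 331 in MKO against MWT, 215 (without MWT 1) to 722 (without FKO 5) in FKO against MWT, 613 (without FWT 3) to 1805 in MKO against FWT and 242 to 393 for the difference of effects. With total counts, 76.4% of 72 calls in FKO against MKO were higher (58.3% with TMM), and 34.3% of 1389 in MKO against FWT (49.5%).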
